A study of Mus musculus with 12 samples.

Results

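The 6 genes described here are Pttg1, Gdpd3, Gkap1, Lyrm7, Lyplal1 and Chchd7, taken out of 27998 genes in the count tables of c-Kit+ bone marrow cells from WT mice and from mice with mutated Nras, deleted Ezh2 or both. They were selected on measured values, as genes with higher UMI levels in mutant than in WT libraries of this same series. The level of each gene in a mutant genotype against WT is therefore given as a description with no test. Their levels in single cell classes belong to the same values and are described in the same way. What was tested is whether the change from WT differed in size between cells with high and low expression of mitotic genes, and whether the level differed between time points. The first of these splits the same cells, so it asks about the size of a change that was already known and is no independent evidence for the change. In all 3 mutant genotypes Pttg1, Gdpd3, Lyrm7 and Lyplal1 were higher than in WT, with fold changes of 3.36 to 7.15. Gkap1 and Chchd7 were higher only in the genotypes with deleted Ezh2, by 2.08-fold to 4.88-fold, and in G12D their ranges overlapped those of WT. By class, the ratio to WT was highest in late granulocytes for Pttg1. For Gdpd3 it was lowest there, with the other myeloid classes next. For Lyrm7 the log2 changes of the classes that could be fitted ran from 1.66 to 2.75.

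The genes belong to different pathways, though Lyrm7 and Chchd7 both encode mitochondrial proteins. Pttg1 encodes securin, which holds separase inactive until the anaphase-promoting complex (APC/C) has it degraded, so that sister chromatids part only once all chromosomes are attached. In many cell types securin RNA and protein rise toward mitosis. Gdpd3 encodes a membrane enzyme of the glycerophosphodiester phosphodiesterase family, which acts on lysophospholipids. Gkap1 encodes an anchoring protein of a cGMP-dependent protein kinase. Lyrm7 encodes a mitochondrial assembly factor of respiratory complex III that carries the LYR motif. Lyplal1 encodes a serine hydrolase related to the acyl-protein thioesterases, and Chchd7 encodes a small protein of the mitochondrial twin CX9C family. Ezh2 is the methyltransferase that places the repressive mark on lysine 27 of histone H3 as part of Polycomb repressive complex 2, and Nras is a small GTPase of the growth factor signalling pathway.

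All mice were given pIpC, a double-stranded RNA mimic that switches on the interferon-driven recombinase Mx1-Cre, at 8 to 12 weeks of age per the labels. The text of the study gives a younger age for pIpC, so the age is uncertain. WT mice carried no Mx1-Cre. E2-KO mice carried Mx1-Cre with both Ezh2 alleles floxed, G12D mice carried Mx1-Cre with 1 inducible NRas G12D knock-in allele, and G12D/E2-KO mice carried all of these, with every line kept on a C57BL/6 background. Cells were taken at 3 times after pIpC, T1 at 2 weeks, T2 at 2 months and T3 at 4 months, with 1 library for each genotype at each time and so 12 libraries, 3 per genotype. Cell names inside the 12 tables count the times from T0, in the same order as the labels, and the times given here are those of the labels. The number of mice behind a library is not given in the sources used here, so the 3 time points served as replicates and p-values measure the spread between these libraries only. Mx1-Cre was present in every mutant and in no WT mouse, so for a gene raised in all 3 mutant genotypes the effect of the recombinase or of any other difference between the lines cannot be told apart from that of the mutations. Likewise, for a gene raised only in E2-KO and G12D/E2-KO, any other difference of these lines cannot be told apart from the Ezh2 deletion.

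Tables of 2 libraries held the same cells. Of the 5648 cells of G12D T1, 2896 (51.3%) were also among the 3044 cells of G12D/E2-KO T1, of which they made up 95.1%, and 1494 of them had equal counts in every gene. No such cells were found in the other 65 of 66 pairs of libraries. From which of the 2 libraries they came is not given in the sources used here. They were counted once, by choice in G12D/E2-KO T1, where they made up nearly the whole table. This left 32701 cells with 2350 to 3767 cells and 12636998 to 23646292 UMIs (unique molecular identifiers, each marking 1 captured RNA molecule) per library. Xist, which marks female cells, was high in the T3 libraries of WT, E2-KO and G12D and in no other, so at T3 G12D/E2-KO differed from the other genotypes in sex. Ezh2, the targeted gene, was measured at 133, 103 and 103 CPM (a unit that scales the UMIs of every library to one total) for WT, at 27.7, 27.9 and 34.6 CPM for E2-KO, at 86.3, 103 and 81.7 CPM for G12D, and at 20.7, 25.3 and 22.4 CPM for G12D/E2-KO, in the order T1, T2, T3. All 6 libraries labelled as Ezh2-deleted lay below the other 6. The shared cells made up 95.1% of G12D/E2-KO T1, so its Ezh2 level of 20.7 CPM is mainly theirs. The cells left in G12D T1 without them were at 86.3 CPM. Kit RNA was found in every library at 43.6 to 80.8 CPM, but its median over the 12 libraries was only 14.9 CPM in late granulocytes and 6.34 CPM in late erythroid cells, against 124 CPM in stem and multipotent cells, so the late classes described here hardly expressed the gene of the sorted marker.

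The genes lie on 5 chromosomes, none of which carries Ezh2 or Nras, and they are given here by their place in the mm10 (GRCm38) annotation of GENCODE. Pttg1 (ENSMUSG00000020415) lies on chromosome 11 from 43420250 to 43426251 on the minus strand. Lyrm7 (ENSMUSG00000020268) lies on the same chromosome from 54826866 to 54860916, also on the minus strand. Gdpd3 (ENSMUSG00000030703) lies on chromosome 7 from 126766334 to 126775649 on the plus strand, Gkap1 (ENSMUSG00000021552) on chromosome 13 from 58233346 to 58275699 on the minus strand, Lyplal1 (ENSMUSG00000039246) on chromosome 1 from 186087731 to 186117310 on the minus strand, and Chchd7 (ENSMUSG00000042198) on chromosome 4 from 3938888 to 3951046 on the plus strand. All 6 are protein coding. Lyplal1 overlaps Gm38268, an unverified transcript on its own strand, and how reads in the overlap were counted is not given in the sources used here. Gdpd3, Gkap1 and Lyrm7 overlap non-coding genes on the opposite strand (Gm9967, Gm48441 and Gm25426).

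RefSeq promoter windows (GRCm38.p6, 250 bases before to 50 bases after the annotated start) were at hand for 4 of the 6 genes, and these are the 4 that were raised in all 3 mutant genotypes. They are shown so that the genes that moved together can be compared at their RefSeq start sites. The windows of Pttg1 and Lyrm7 lie wholly within the GENCODE bounds of those genes given above, so the sequence before the GENCODE start of either gene is not in them. Each was searched on both strands for CCAAT (the NF-Y box, which reads ATTGG on the other strand), TTTGAA (the core of the cell cycle homology region) and GGGCGG (the GC box of Sp1 family factors, CCGCCC on the other strand), and capitals mark the matches.
Pttg1, chr11:43425932-43426231, minus strand: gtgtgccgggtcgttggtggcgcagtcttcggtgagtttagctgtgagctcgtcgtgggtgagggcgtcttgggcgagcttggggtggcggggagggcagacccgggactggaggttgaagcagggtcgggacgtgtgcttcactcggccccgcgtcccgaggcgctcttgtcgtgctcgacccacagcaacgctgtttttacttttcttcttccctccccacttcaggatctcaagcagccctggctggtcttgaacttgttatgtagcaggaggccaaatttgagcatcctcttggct
Lyrm7, chr11:54860548-54860847, minus strand: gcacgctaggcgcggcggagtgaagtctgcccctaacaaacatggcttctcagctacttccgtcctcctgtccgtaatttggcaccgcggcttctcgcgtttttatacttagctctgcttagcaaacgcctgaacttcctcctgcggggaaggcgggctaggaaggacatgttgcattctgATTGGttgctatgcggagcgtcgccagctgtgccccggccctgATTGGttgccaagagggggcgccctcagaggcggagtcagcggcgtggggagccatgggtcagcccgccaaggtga
Gdpd3, chr7:126766164-126766463, plus strand: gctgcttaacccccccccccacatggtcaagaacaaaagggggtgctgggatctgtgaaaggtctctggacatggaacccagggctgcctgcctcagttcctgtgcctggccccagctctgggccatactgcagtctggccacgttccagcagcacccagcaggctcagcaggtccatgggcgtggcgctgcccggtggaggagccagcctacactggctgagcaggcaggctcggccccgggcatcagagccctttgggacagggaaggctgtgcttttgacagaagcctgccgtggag
Lyplal1, chr1:186117261-186117560, minus strand: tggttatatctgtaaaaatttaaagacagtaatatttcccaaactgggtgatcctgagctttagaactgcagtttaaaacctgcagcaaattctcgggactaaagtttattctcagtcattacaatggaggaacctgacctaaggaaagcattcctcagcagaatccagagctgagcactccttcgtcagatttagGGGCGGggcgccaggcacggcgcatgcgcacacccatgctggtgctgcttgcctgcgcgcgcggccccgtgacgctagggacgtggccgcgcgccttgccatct
The Lyrm7 window held 2 matches to CCAAT, both in the reverse orientation, and the Lyplal1 window held 1 match to GGGCGG. The Pttg1 and Gdpd3 windows held none of the 3 words, which says nothing of the sequence outside them. CCAAT occurs in 37.4%, GGGCGG in 35.7% and TTTGAA in 17.9% of 32851 windows of the same length, so these words are common, and no word was shared by the 4 windows.

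Pttg1 was higher in each of the 9 mutant libraries than in any WT library. In the order T1, T2, T3 its level was 38.7, 37.5 and 29.1 CPM for WT, 215, 202 and 158 CPM for E2-KO, 162, 102 and 152 CPM for G12D, and 193, 159 and 129.6 CPM for G12D/E2-KO. The lowest mutant library, G12D T2, was still well above the highest WT library. The means were 35.1 ± 5.24 CPM for WT, 192 ± 29.6 CPM for E2-KO, 139 ± 32.2 CPM for G12D and 160.5 ± 31.7 CPM for G12D/E2-KO (SD, n = 3 each). The log2 changes from WT, estimated with edgeR, were 2.43 (SE 0.20) in E2-KO, 2.02 (SE 0.20) in G12D and 2.14 (SE 0.20) in G12D/E2-KO, or 5.38-fold, 4.07-fold and 4.40-fold. The ranges of the 3 mutant genotypes overlapped each other.

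Lyrm7 had almost the same pattern at a lower level. Its level was 4.16, 3.81 and 2.97 CPM for WT, 18.2, 21.2 and 11.4 CPM for E2-KO, 18.3, 10.8 and 16.5 CPM for G12D, and 17.0, 14.0 and 16.5 CPM for G12D/E2-KO. As for Pttg1, the lowest mutant library was G12D T2 and no mutant library reached down to WT. The changes from WT were 4.58-fold for E2-KO, 4.28-fold for G12D and 4.19-fold for G12D/E2-KO, and the mutant ranges overlapped.

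Gdpd3 was measured at 6.83, 7.82 and 9.68 CPM for WT, 33.3, 28.1 and 57.1 CPM for E2-KO, 64.7, 46.3 and 62.5 CPM for G12D, and 75.9, 41.4 and 48.6 CPM for G12D/E2-KO. All mutant libraries lay above WT, and by ratio they spread more widely than those of Pttg1, with E2-KO T2 the lowest and G12D/E2-KO T1 the highest. The means were 8.11 ± 1.45 CPM for WT, 39.5 ± 15.5 CPM for E2-KO, 57.8 ± 10.1 CPM for G12D and 55.3 ± 18.2 CPM for G12D/E2-KO (SD, n = 3 each). The log2 changes were 2.22 (SE 0.31), 2.84 (SE 0.32) and 2.71 (SE 0.32), or 4.66-fold, 7.15-fold and 6.54-fold, and again the mutant ranges overlapped.

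Lyplal1 was a scarce transcript with 72 UMIs in all of WT, against 328 for E2-KO, 215 for G12D and 237 for G12D/E2-KO. Its level was 0.832, 1.40 and 1.28 CPM for WT, 6.26, 7.14 and 4.35 CPM for E2-KO, 3.50, 5.63 and 2.79 CPM for G12D, and 3.68, 4.74 and 4.34 CPM for G12D/E2-KO. The 9 mutant libraries lay above the 3 WT libraries, with G12D T3 nearest to WT. The changes from WT were 4.91-fold, 3.36-fold and 3.47-fold for E2-KO, G12D and G12D/E2-KO. Of all 12848 genes tested, 165 (1.28%) had all 9 mutant libraries above the 3 WT libraries, and 4 of the 6 genes did, which is the pattern they were selected for.

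Gkap1 and Chchd7 followed the Ezh2 genotype instead. Gkap1 was measured at 5.17, 4.95 and 7.94 CPM for WT, 33.9, 28.3 and 27.5 CPM for E2-KO, 5.27, 5.58 and 3.92 CPM for G12D, and 23.2, 24.7 and 25.0 CPM for G12D/E2-KO. The G12D libraries lay among or just below the WT libraries, and those with deleted Ezh2 formed a separate group. The log2 changes from WT were 2.29 (SE 0.21) in E2-KO, -0.25 (SE 0.22) in G12D and 1.95 (SE 0.21) in G12D/E2-KO, or 4.88-fold, 0.838-fold and 3.88-fold. G12D/E2-KO lay below E2-KO with no overlap, at a log2 difference of -0.33.

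Chchd7 showed the same order of genotypes with a smaller step. It was measured at 74.2, 66.4 and 54.0 CPM for WT, 144, 142 and 148 CPM for E2-KO, 54.1, 64.8 and 59.4 CPM for G12D, and 116, 153 and 153 CPM for G12D/E2-KO. Its libraries with deleted Ezh2 lay above the other 6 by a smaller factor than those of Gkap1, 2.22-fold for E2-KO and 2.08-fold for G12D/E2-KO, and in G12D the factor was 0.940. All 6 Ezh2-deleted libraries lay above the other 6 libraries for 349 (2.72%) of 12848 genes. Among the 6 described here, only Gkap1 and Chchd7 showed that order. Against WT alone, all 3 E2-KO libraries were higher for 15.7% of genes, all 3 G12D libraries for 7.28% and all 3 double mutant libraries for 14.8%, while the counts among the 6 genes were 6, 4 and 6.

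**Figure D1:**
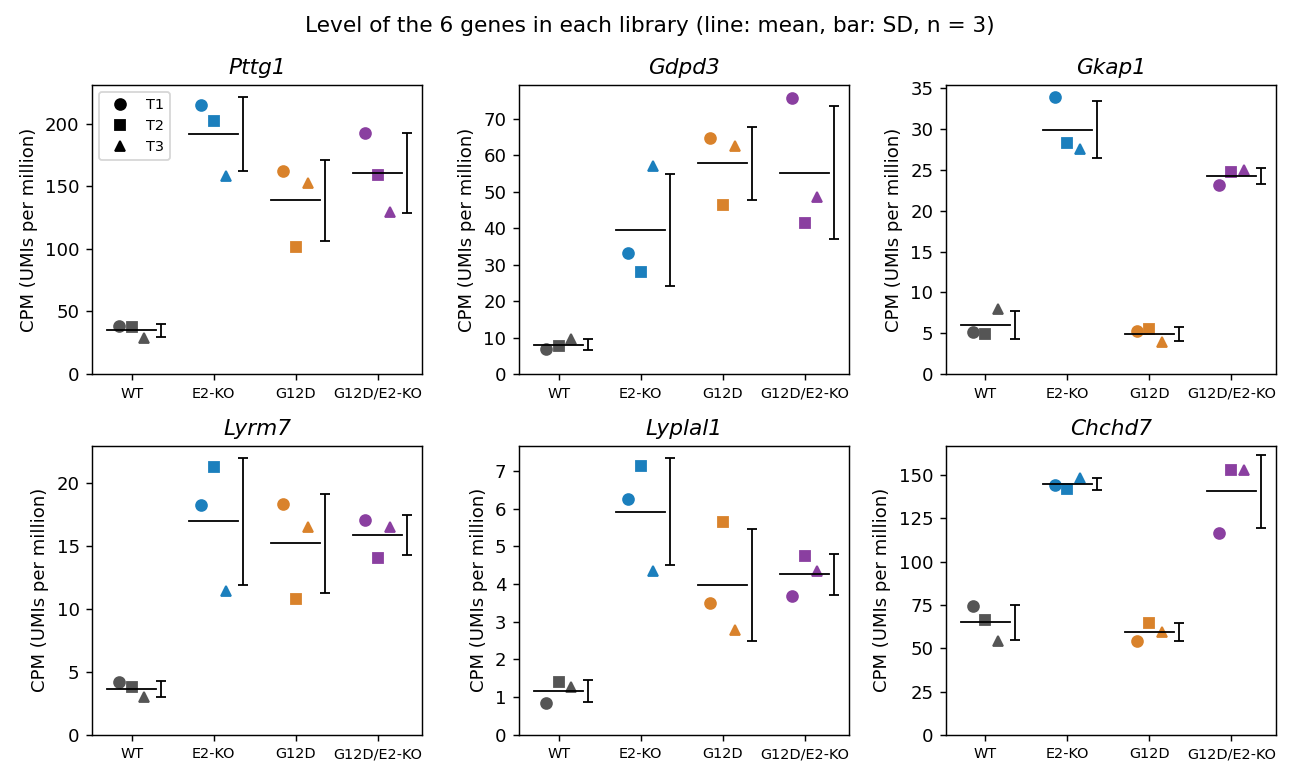
Level of each gene in CPM (y axis, from 0, with its own scale per panel) in the 12 libraries, with 1 panel per gene, the genotypes along the x axis, 1 point per library shaped by time point, a line at the mean and a bar of 1 SD (n = 3). Pttg1, Gdpd3, Lyrm7 and Lyplal1 were higher in all 9 mutant libraries than in WT, and Gkap1 and Chchd7 only in the 6 libraries with deleted Ezh2.

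To ask whether all cell classes shared these changes, cells were assigned to classes by their marker genes, and UMIs were summed per library and class. Of 32701 cells, 29292 (89.6%) passed the marker gate and 2613 lay within 0.1 of one of its limits. Of the classes, 7 had no library with fewer than 20 cells, and together they held 26278 cells. They were stem and multipotent progenitors (HSC/MPP, 1805 cells), granulocyte-macrophage progenitors and the early granulocytes that follow them (GMP/early GN, 5427), promonocytes (ProMo, 2448), late granulocytes (late GN, 8450), megakaryocyte-erythroid progenitors with early erythroid cells (MEP/EryP/early Ery, 4613), late erythroid cells (late Ery, 2747) and megakaryocytic cells (Meg, 788). The 10 genes that led each class held 1 to 6 of its own markers and none of another class. The cells were gated on these markers, so this is no independent check of the classes. Among ProMo cells the median GMP/early GN marker score was 0.82, beside 2.05 for their own. Among late Ery cells the median MEP/EryP/early Ery score was 0.77, beside 2.62 for their own. The log2 change in a class was estimated with edgeR from the sums of that class alone, and is given with its SE and no test. Within a class, all 3 libraries lay above the 3 WT libraries in 8.1% of pairs of gene and class in E2-KO, 4.7% for G12D and 9.19% for G12D/E2-KO. In bulk sums of a class, fewer expressing cells and less RNA per cell cannot be told apart.

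Pttg1 was higher in all 3 mutant genotypes in all 7 classes, with no overlap with WT in any of the 21 pairs of class and mutant. Late granulocytes stood apart. There Pttg1 was measured at 12.8, 8.29 and 10.7 CPM for WT, 241, 244 and 173 CPM for E2-KO, 194, 106 and 187 CPM for G12D, and 226, 216 and 194 CPM for G12D/E2-KO. The log2 changes in that class were 4.27, 3.87 and 4.15 (SE 0.23 each), while those of the other 6 classes ran from 1.39 to 2.21. In the megakaryocyte-erythroid class, by comparison, WT was measured at 48.5, 38.4 and 34.6 CPM, E2-KO at 163, 156 and 110.1 CPM, G12D at 106, 86.4 and 112 CPM, and G12D/E2-KO at 144, 104 and 92.6 CPM. Late granulocytes were thus the class with the lowest WT mean, 10.6 CPM against 31.2 to 69.6 CPM in the other classes. Their mutant means of 162 to 219.5 CPM were exceeded only by those of late erythroid cells, at 236 to 269.8 CPM. As a difference of mean CPM rather than a ratio, the gain over WT was likewise largest in late granulocytes and late erythroid cells, at 209 and 188 CPM for E2-KO, where HSC/MPP had the smallest at 73.9 CPM. CPM is a share of the UMIs of a class, and classes differed in UMIs per cell. The median was 4349.5 in late granulocytes, 3814 in late erythroid cells and 11326 in the megakaryocyte-erythroid class. Differences of CPM between classes, here and for Gdpd3, are thus not gains per cell, which were not compared. Class means ran from 10.6 to 69.6 CPM for WT, from 105 to 258 CPM for E2-KO, from 94.0 to 236 CPM for G12D and from 107 to 269.8 CPM for G12D/E2-KO, so the classes were further apart in WT than in the mutants by ratio.

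Gdpd3 was also higher in all 21 pairs of class and mutant with no overlap. In WT it was found almost only in the myeloid classes, at a mean of 12.9 CPM in GMP/early GN, 17.3 CPM in ProMo and 17.97 CPM in late GN. The 3 WT libraries together gave 16 UMIs in the megakaryocyte-erythroid class, 6 in HSC/MPP, 5 in late erythroid cells and 1 in megakaryocytic cells. In the megakaryocyte-erythroid class Gdpd3 was measured at 0.844, 0.654 and 0.950 CPM for WT, 16.8, 15.4 and 23.0 CPM for E2-KO, 16.0, 15.9 and 33.4 CPM for G12D, and 62.6, 31.0 and 24.1 CPM for G12D/E2-KO. The ratios of the means were 22.5, 26.7 and 48.0. In late granulocytes it was measured at 17.1, 16.0 and 20.8 CPM for WT, 36.7, 30.6 and 68.7 CPM for E2-KO, 66.8, 56.0 and 63.4 CPM for G12D, and 59.1, 32.4 and 38.3 CPM for G12D/E2-KO, with log2 changes of 1.17, 1.72 and 1.13. The other myeloid classes were close, with 1.44, 2.19 and 1.49 in ProMo (SE 0.34 to 0.38) and 1.70, 2.28 and 1.71 in GMP/early GN. HSC/MPP had the highest mutant mean of any class in E2-KO and G12D/E2-KO, at 80.4 and 104 CPM, and in late erythroid cells the mutant means were 50.4 to 82.0 CPM. In HSC/MPP the gain in mean CPM over WT was 72.1 to 101 CPM, against 25.3 to 44.1 CPM in late granulocytes. Against late granulocytes, the change was larger in HSC/MPP, megakaryocytic and late erythroid cells as a difference of means. No ratio is quoted in the text for these classes because WT had 1 to 6 UMIs. The plot of log2 changes by class shows fitted values for HSC/MPP and late erythroid cells, which rest on 6 and 5 UMIs in WT. In the megakaryocyte-erythroid class the gains were 17.6 to 38.4 CPM. There the change was larger than in late granulocytes as a ratio in all 3 mutant genotypes and as a difference only in G12D/E2-KO.

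S100a8, an abundant granulocyte transcript, was measured beside Gdpd3 in the classes outside the granulocytes. It is a marker of the gate, which keeps cells rich in it out of these classes and so lowers its level there. In the mutants the S100a8 level of the megakaryocyte-erythroid class was 0.434% to 1.01% of that in late granulocytes, whereas the Gdpd3 level was 35.1% to 90.6% of it. For HSC/MPP the same shares were 0.515% to 0.990% for S100a8 and 120.3% to 239% for Gdpd3. The part of free granulocyte RNA in the Gdpd3 level of these classes was not tested.

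Lyrm7 was higher in all 21 pairs of class and mutant, without overlap in 20 of them. The exception was the megakaryocytic class of G12D, which rested on 7 UMIs against 5 for WT. Its log2 changes in the 6 classes that could be fitted were 1.66 to 2.75. The levels were low, with 5 to 105 UMIs per class in WT, and the SE of a class's log2 change was 0.23 to 0.72. In late granulocytes, where Pttg1 differed most, Lyrm7 was measured at 1.87, 2.43 and 0.671 CPM for WT, 10.4, 10.9 and 8.49 CPM for E2-KO, 13.5, 7.85 and 10.01 CPM for G12D, and 8.40, 8.70 and 10.00 CPM for G12D/E2-KO. The log2 changes of 2.42, 2.56 and 2.17 lay inside the range of the other classes.

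Lyplal1 was higher in mean in 19 of the 21 pairs, but without overlap in only 9. In the megakaryocyte-erythroid class it was measured at 0.338, 0.654 and 0.815 CPM for WT, 9.05, 10.6 and 7.36 CPM for E2-KO, 6.20, 8.71 and 6.49 CPM for G12D, and 6.82, 6.56 and 4.90 CPM for G12D/E2-KO. The log2 changes were 3.82 (SE 0.33), 3.51 (SE 0.36) and 3.29 (SE 0.38), and no mutant library came near WT. In HSC/MPP, the class with the highest WT level, it was measured at 4.63, 6.79 and 5.92 CPM for WT, 12.6, 5.60 and 7.14 CPM for E2-KO, 10.7, 16.3 and 5.89 CPM for G12D, and 5.55, 6.88 and 4.24 CPM for G12D/E2-KO. There the ranges overlapped in all 3 comparisons, on 13 to 24 UMIs per genotype. In promonocytes the log2 changes were 1.07 (SE 0.46), 0.42 (SE 0.44) and 0.67 (SE 0.44). Late granulocytes and late erythroid cells had 0 UMIs in WT and at most 5 in any mutant, so no fold change is given there.

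Gkap1 was higher in E2-KO and G12D/E2-KO in all 7 classes by mean, and in 6 of 7 without overlap in each. Late granulocytes again showed the largest ratio among the classes with at least 10 UMIs in WT. There Gkap1 was measured at 1.25, 0.809 and 0.671 CPM for WT, 18.4, 21.1 and 20.8 CPM for E2-KO, 0.410, 0.271 and 0.513 CPM for G12D, and 20.5, 18.8 and 18.3 CPM for G12D/E2-KO. The log2 changes were 4.33 (SE 0.34) in E2-KO and 4.23 (SE 0.32) in G12D/E2-KO, and the G12D libraries, with 5 UMIs in all against 11 for WT, lay below those of WT. HSC/MPP was the class with overlap. It was measured there at 17.0, 19.0 and 11.8 CPM for WT, 47.3, 18.7 and 16.7 CPM for E2-KO, and 22.2, 28.3 and 18.4 CPM for G12D/E2-KO, with log2 changes of 0.88 (SE 0.37) and 0.59 (SE 0.34). HSC/MPP was also the class with the highest WT mean, 15.95 CPM. In G12D the level was not above WT without overlap in any class.

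Chchd7 was higher in E2-KO and G12D/E2-KO in all 7 classes without overlap, and in none of them in G12D. In 6 classes the log2 changes of the Ezh2-deleted genotypes lay between 0.79 and 1.23, about the value over all cells. Late erythroid cells differed, with log2 changes of 2.00 (SE 0.25) in E2-KO and 2.15 (SE 0.25) in G12D/E2-KO. In that class Chchd7 was measured at 59.2, 31.8 and 16.8 CPM for WT, 121, 113 and 131 CPM for E2-KO, 53.5, 38.6 and 47.3 CPM for G12D, and 199, 142 and 133 CPM for G12D/E2-KO. The WT libraries of this class were far apart, with T3 lowest at 16 UMIs.

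**Figure D2:**
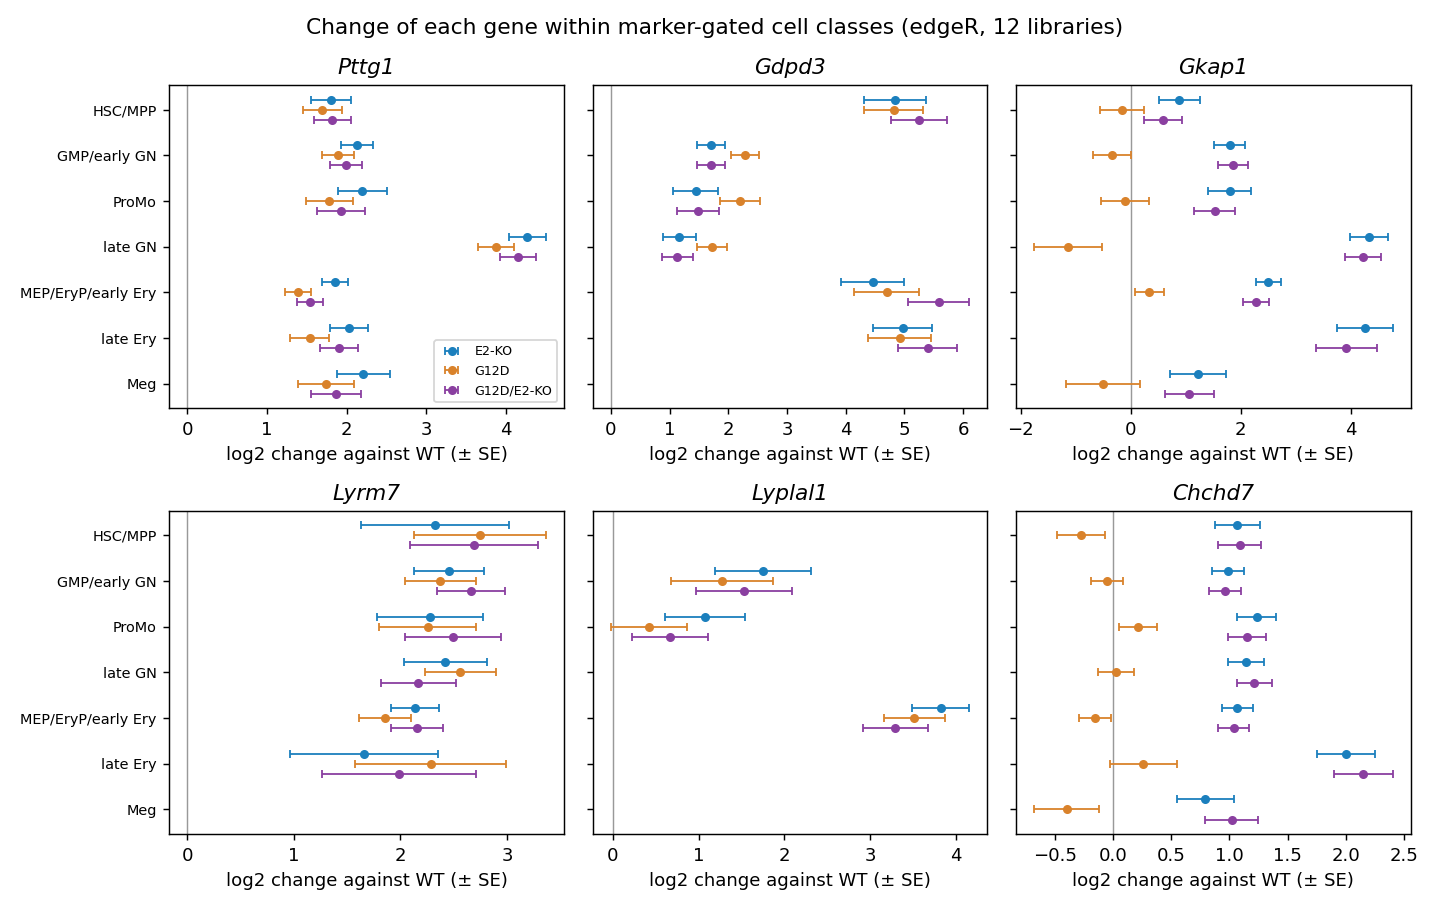
Change of each gene from WT (log2, x axis, scale differs between panels) in each of the 7 cell classes (y axis) for the 3 mutant genotypes, as points with bars of 1 SE from the edgeR fit, drawn where the gene could be fitted and both groups had more than 3 UMIs. Pttg1 stood out in late granulocytes at 3.87 to 4.27. Gdpd3 was lowest in late granulocytes at 1.13 to 1.72, with promonocytes next at 1.44 to 2.19, and Lyrm7 kept to 1.66 to 2.75 in all fitted classes.

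**Figure D3:**
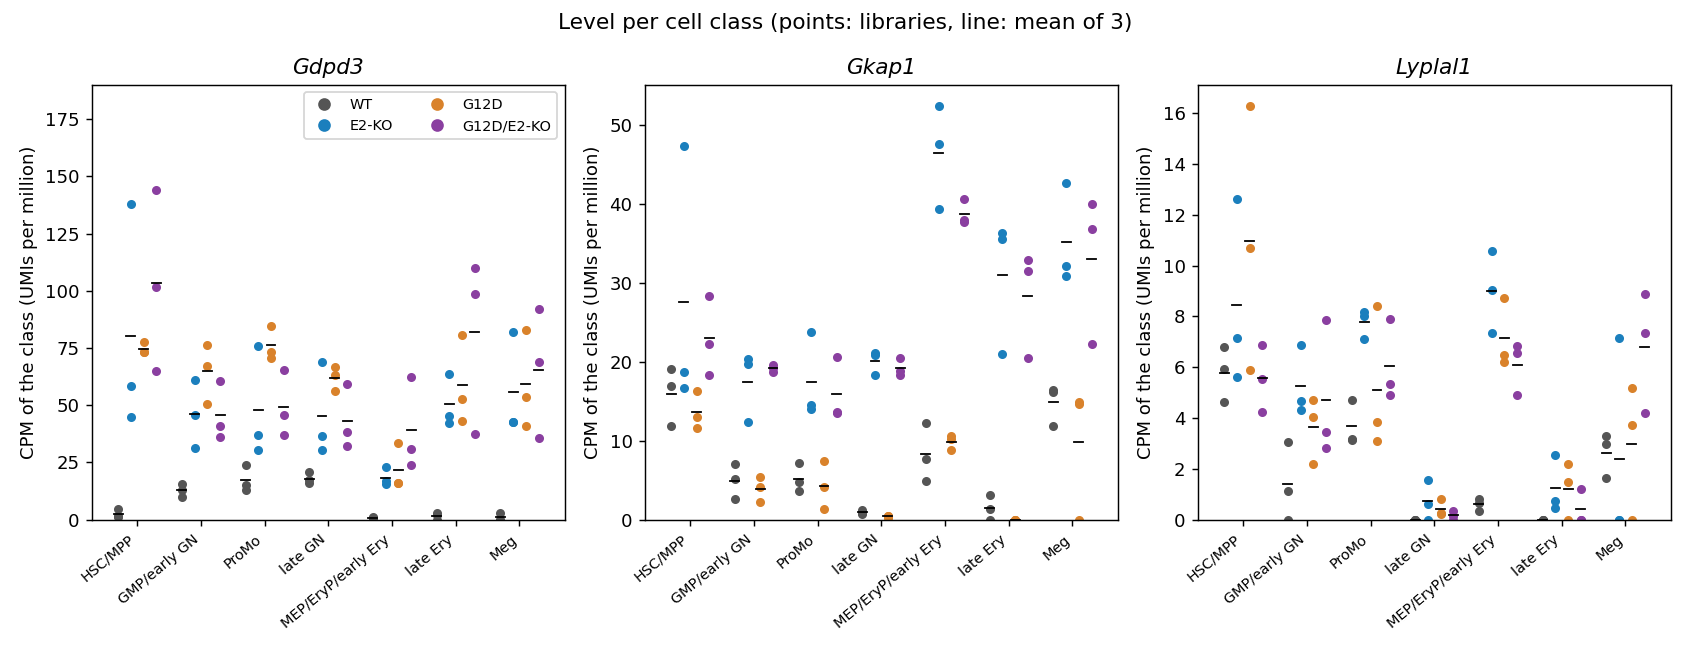
Levels of Gdpd3, Gkap1 and Lyplal1 in CPM of a class (y axis, from 0) in the 7 cell classes (x axis), coloured by genotype, with 1 point per library and a line at the mean of 3. For Gdpd3 no WT point reached the mutant points in any class, whereas for Gkap1 and Lyplal1 the WT points of HSC/MPP lay among those of the mutants.

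Since securin acts in mitosis, Pttg1 was next compared between cells with high and low expression of 20 other G2/M genes (Top2a, Mki67, Plk1 and others, without the genes described here). A total of 5630 cells scored above the high limit, 17828 below the low limit and 9243 between them, and 6740 cells lay within 0.1 of a limit. The share of high cells was 11.6% to 22.2% per library. In WT, Pttg1 was about as high in G2/M-high as in G2/M-low cells, slightly higher at T1 and lower at T2 and T3. It was measured at 39.1, 33.7 and 23.6 CPM in the high cells and at 37.9, 41.6 and 30.8 CPM in the low cells. In the mutants it was higher in G2/M-high cells in each of the 9 libraries. The high cells were measured at 333, 340 and 266 CPM for E2-KO, 279, 159 and 273 CPM for G12D, and 300.3, 265 and 222 CPM for G12D/E2-KO. The low cells were measured at 157, 146 and 114 CPM for E2-KO, 100.2, 76.7 and 94.3 CPM for G12D, and 116, 105 and 94.8 CPM for G12D/E2-KO. Against the WT mean of the same range, G2/M-low mutant cells were at 2.46 to 3.79 times and G2/M-high mutant cells at 7.38 to 9.73 times. The ranges are expression scores and not phases of the cell cycle.

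The change from WT was larger in G2/M-high than in G2/M-low cells by 1.44 (SE 0.12) on the log2 scale in E2-KO, 1.59 (SE 0.12) in G12D and 1.54 (SE 0.12) in G12D/E2-KO. The edgeR test of this difference, with each library as a block, gave adjusted p = 7.76e-09, 7.78e-10 and 1.60e-09. Among 11576 genes the same test called 0.0173% for E2-KO (2 genes), 0.0346% for G12D (4 genes) and 0.631% for G12D/E2-KO (73 genes). Pttg1 was called in all 3, and in this fit none of the other 5 genes was called in any. Without the library block the differences were the same size, but the adjusted p rose to 0.171 for E2-KO and 0.0709 for G12D/E2-KO, a fit in which the spread between libraries enters the error of a difference measured within them. The nearest of the other genes was Gkap1, with differences of 1.19 (SE 0.26, edgeR adjusted p = 0.123) in E2-KO and 1.04 (SE 0.27, edgeR adjusted p = 0.0616) in G12D/E2-KO. The latter passed the threshold without E2-KO T3 (edgeR adjusted p = 0.0422) and without G12D/E2-KO T2 (0.0251).

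Because G2/M-high cells were not drawn evenly from the classes, the split was repeated within late granulocytes and late erythroid cells, the 2 classes that had 20 cells or more in each range of each library. In late granulocytes the mean of Pttg1 in high and low cells was 9.14 and 10.6 CPM for WT, a ratio of 0.862. It was 308 and 135 CPM for E2-KO, 261 and 81.5 CPM for G12D, and 295 and 117 CPM for G12D/E2-KO, with ratios of 2.29, 3.21 and 2.52. In late erythroid cells WT had less Pttg1 in high than in low cells, 42.4 against 101 CPM, and the mutants had more, with ratios of 1.53, 1.68 and 1.48. In late erythroid cells each WT library had less Pttg1 in its high cells and each mutant library had more. In late granulocytes each mutant library also had more in its high cells, but the WT libraries were not alike, with T2 at 15.1 CPM in high and 7.03 CPM in low cells and the other two lower in high cells, on 3 to 25 UMIs each. The summed level of the 20 G2/M genes in late granulocytes was 1872 CPM for WT, 2170 CPM for E2-KO, 1972 CPM for G12D and 2259 CPM for G12D/E2-KO. Its part in the Pttg1 difference was not tested. Within late erythroid cells Gdpd3 had the opposite split in the mutants, with 20.6 to 30.5 CPM in high cells and 97.0 to 140 CPM in low cells, and in WT it rested on a handful of UMIs. In late granulocytes Gdpd3 was also lower in high cells, and there in WT too. The ratios of high to low were 0.348 for WT (25 and 147 UMIs), 0.510 for E2-KO, 0.619 for G12D and 0.481 for G12D/E2-KO.

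**Figure D4:**
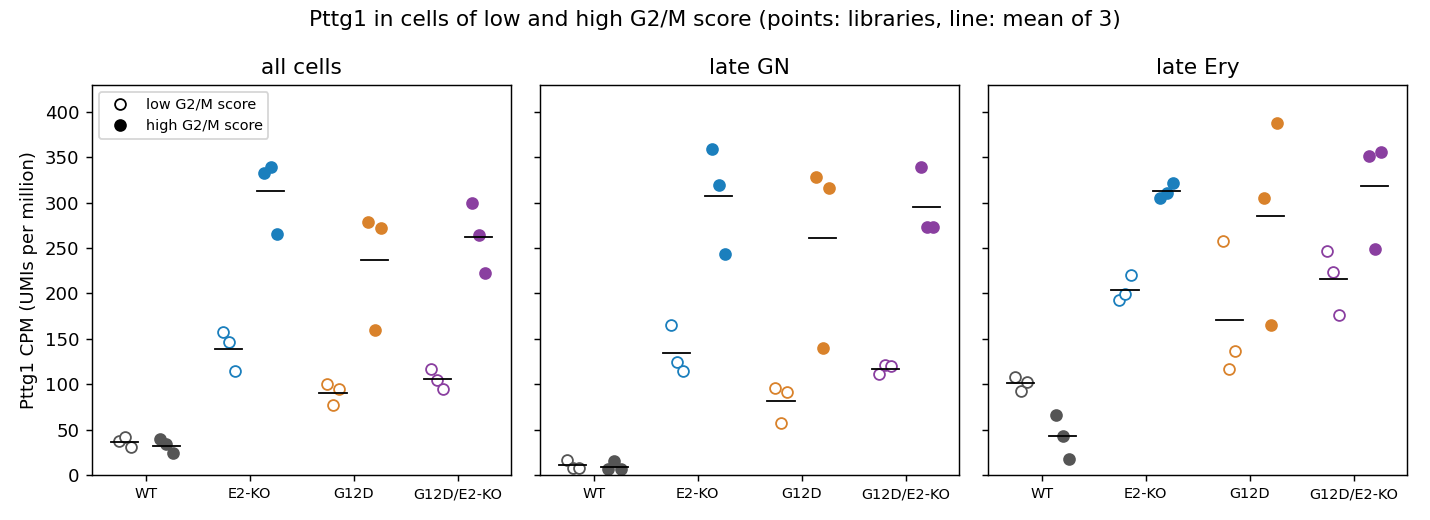
Pttg1 level in CPM (y axis, from 0) in cells with a low (open points) and a high (filled points) score of 20 other G2/M genes, by genotype (x axis), in all cells, late granulocytes (late GN) and late erythroid cells (late Ery), with 1 point per library and a line at the mean of 3. In all cells the high cells of WT stayed between 23.6 and 39.1 CPM, and those of the mutants lay between 159 and 340 CPM, above the low cells of the same library.

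Time after pIpC, which played no part in the choice of the genes, was tested next. With edgeR 0 (0%) of 12848 genes were called between T2 and T1 and 0 (0%) between T3 and T1 over the 4 genotypes, while 599 and 1677 genes had an unadjusted p under 0.05 and DESeq2 called 4 and 21. None of the 6 genes was called. The smallest edgeR adjusted p was that of Pttg1 at T3, which was lower than T1 by a log2 difference of -0.39 (SE 0.17, adjusted p = 0.369). Pttg1 was lower at T3 than at T1 in all 4 genotypes. Lyplal1 was higher at T2 than at T1 in all 4, by 0.41 (SE 0.20, edgeR adjusted p = 0.908), and Gdpd3 was lowest at T2 in each mutant genotype (log2 difference from T1 over all genotypes -0.46, SE 0.26, edgeR adjusted p = 0.908). With 1 library per genotype and time, a change of this size could not be separated from the spread between libraries. In WT, E2-KO and G12D the T3 libraries also differed from those of T1 in sex, by Xist. For T3 against T1, time cannot be told apart from sex in these genotypes.

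By edgeR the other genes of the pathways were called about as often as genes in general. In G12D/E2-KO all calls in the lists but that of Uqcrq were lower, whereas of all genes more were called higher. The calls in the lists fell to 0 there without WT T3 or without G12D/E2-KO T2, and their direction was not tested. In E2-KO 1.3% of the 12848 genes tested were called higher and 0.288% lower than WT by edgeR, in G12D 0.0856% and 0.0233%, and in G12D/E2-KO 3.73% and 1.96%. Of 34 other genes of securin, separase, cohesin and the APC/C, edgeR called 0 in any mutant genotype, with 5, 2 and 7 at an unadjusted p under 0.05 for E2-KO, G12D and G12D/E2-KO and list medians of 0.046, -0.060 and -0.080 on the log2 scale beside 0.0043, -0.0089 and 0.012 for all genes. The lowest p among them was that of Ccnb2, a mitotic cyclin, which differed from WT in G12D/E2-KO by -0.48 on the log2 scale (SE 0.13) at an edgeR adjusted p of 0.0572. Of 20 G2/M genes only Hmmr, a spindle-associated protein, was called, lower in G12D/E2-KO (log2 change -0.63, edgeR adjusted p = 0.0483). Of 17 S phase genes only Tyms, thymidylate synthase, was called, also lower in G12D/E2-KO (log2 change -0.66, edgeR adjusted p = 0.0398).

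Of 15 tested genes of the glycerophosphodiesterase family and of lysophospholipid metabolism, 2 were lower in G12D/E2-KO by the edgeR test and 0 were called in E2-KO or G12D. They were Gdpd1, a relative of Gdpd3, with a log2 change of -1.70 (SE 0.34, adjusted p = 0.0211), and Lpcat3, a lysophospholipid acyltransferase, with -0.61 (SE 0.14, adjusted p = 0.0377). In E2-KO and G12D, where Gdpd3 was also higher, the log2 changes of Gdpd1 were -0.15 and -0.92 and were not called. Of 10 tested genes of the cGMP-dependent kinase pathway only Vasp, a kinase substrate at the actin cytoskeleton, was called, lower in E2-KO (log2 change -0.97, SE 0.21, edgeR adjusted p = 0.0454). The medians of that list were -0.36, -0.63 and 0.25 on the log2 scale for E2-KO, G12D and the double mutant, with 3, 3 and 6 genes at an unadjusted p under 0.05. Of 9 acyl-protein thioesterases and depalmitoylases edgeR called 0, with 3, 2 and 3 at an unadjusted p under 0.05, and Abhd17c had the smallest p at a log2 change of 0.51 (edgeR adjusted p = 0.0596) in G12D/E2-KO.

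The mitochondrial lists held a few calls. Of 26 tested genes for complex III and LYR motif proteins, Uqcrq, a subunit of complex III, was higher in E2-KO (log2 change 0.71, SE 0.12, edgeR adjusted p = 0.0142), as it was in the double mutant (0.51, SE 0.12, edgeR adjusted p = 0.0373). Bcs1l, which inserts the Rieske protein into complex III, was lower in G12D/E2-KO (log2 change -0.61, edgeR adjusted p = 0.0449). Of 22 tested genes of the twin CX9C family, Chchd10 (log2 change -1.01, edgeR adjusted p = 0.0355) and Chchd2 (-0.41, edgeR adjusted p = 0.0482) were lower in G12D/E2-KO. In E2-KO, where Chchd7 was also higher, their log2 changes were 0.56 and -0.03 and were not called. In G12D none of the genes of these lists was called. In G12D/E2-KO 9 of these 26 complex III and LYR genes had an unadjusted p under 0.05. Neither this nor the other unadjusted counts of the lists were set against the share of all genes, so they cannot show whether there was an excess. Over the 153 tested entries of all 8 lists, with Lypla1 and Lypla2 in 2 of them, edgeR called 2 in E2-KO (1.31%), 0 for G12D and 8 for G12D/E2-KO (5.23%), against 1.59%, 0.109% and 5.69% of all genes. DESeq2 called 3, 1 and 19 of the listed genes, each counted once, and 430, 140 and 1291 of all genes. It was run without the edgeR filter on low counts, so it was not limited to these 153 entries. Its counts are thus not to be set beside the edgeR shares. The edgeR calls in the lists rested on single libraries. In E2-KO 0 were left without any one of WT T2, WT T3, E2-KO T1 and E2-KO T3, and in G12D/E2-KO 0 without WT T3 or without G12D/E2-KO T2.

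Few nearby genes were called. Tested genes that start within 1 Mb of a described gene numbered 5 for Pttg1, 66 for Gdpd3, 7 for Gkap1, 19 for Lyrm7, 8 for Lyplal1 and 8 for Chchd7. Around Pttg1, Gkap1 and Lyplal1 edgeR called none of them in any mutant genotype. Slc30a10, which starts 662 kb from Lyplal1, had log2 changes of 1.97, -0.27 and 1.01 for E2-KO, G12D and G12D/E2-KO. Its edgeR adjusted p was 0.0687, 0.862 and 0.196, at a WT mean of 1.56 CPM. Rrp15, 632 kb away on the other side, had log2 changes of -0.004, -0.14 and -0.28. Beside Gkap1, those of Ubqln1 were 0.10, -0.08 and 0.04, and those of 2210016F16Rik were 0.02, -0.34 and -0.36. Slu7, a splicing factor gene that starts 7.49 kb from the start of Pttg1, had log2 changes of 0.03, 0.04 and 0.15. Around Gdpd3 only lower genes were called, Apobr (log2 change -1.72, edgeR adjusted p = 0.0416) and Slx1b (-0.90, edgeR adjusted p = 0.0371) in E2-KO and Zg16 (-1.15, edgeR adjusted p = 0.0347) and Mylpf (-1.27, edgeR adjusted p = 0.0125) in G12D/E2-KO, while Mapk3 and Ypel3 on either side of it were not called. Around Lyrm7, Ccdc69 was lower in E2-KO (log2 change -0.78, edgeR adjusted p = 0.0467) and G12D/E2-KO (-0.65, edgeR adjusted p = 0.0454), and Tnip1 and Atox1 were higher in G12D/E2-KO (0.75 and 0.53, edgeR adjusted p = 0.0208 and 0.0355). In E2-KO and G12D the log2 changes of Tnip1 were 0.47 and 0.62 and those of Atox1 0.41 and 0.31, and none of these was called. Hint1 and Cdc42se2, the nearest tested genes to Lyrm7, were not called.

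Chchd7 had a neighbour that was called in the same genotypes in which Chchd7 was higher. Penk, the proenkephalin gene, starts 199.9 kb from it and was higher in E2-KO by 2.65 on the log2 scale (SE 0.43, edgeR adjusted p = 0.0119), while the double mutant was higher by 2.20 (SE 0.43, edgeR adjusted p = 0.0208). Its mean was 0.591 CPM for WT, 3.89 CPM for E2-KO, 0.713 CPM for G12D and 2.98 CPM for G12D/E2-KO. Plag1, a zinc finger gene that starts only 0.465 kb away and runs in the opposite direction, had log2 changes of 1.85 and 1.60 in the same genotypes and was not called (edgeR adjusted p = 0.0687 and 0.0565). Gm11808, the nearest tested gene on the other side, was not called in any genotype. Over all 113 neighbours edgeR called 4 genes in E2-KO (3.54%, against 1.59% of all genes), 0 for G12D (against 0.109%) and 6 for G12D/E2-KO (5.31%, against 5.69%). DESeq2 called 8, 2 and 13 neighbours, and 430, 140 and 1291 of all genes. It was run without the edgeR filter on low counts, so its neighbours were not limited to these 113. The edgeR counts of neighbours depended on single libraries, running from 0 to 9 for E2-KO and from 0 to 15 for G12D/E2-KO with 1 left out. For E2-KO the count was 0 with cells as deposited and 1 without time point in the fit.

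Finally, genes with the most similar pattern over the 12 libraries were sought among 8856 genes with a mean of at least 5 CPM, by Pearson's r of log2 levels, which is a description over libraries that share genotypes and depth. Pttg1 and Lyrm7 were each other's nearest gene (r = 0.976). After Lyrm7, Pttg1 was closest to Uqcrq (r = 0.878) and Dsp (r = 0.875), and Lyrm7 to Wdfy1 (r = 0.915) and Zscan26 (r = 0.899). Gdpd3 was closest to Cask (r = 0.896), Zyg11b (r = 0.883) and Gm13212 (r = 0.876), and Lyplal1 to Uqcrq (r = 0.910), Inpp5f (r = 0.898) and BC055324 (r = 0.885). Gkap1 was closest to Bex1 (r = 0.982), Pbx3 (r = 0.981) and Macrod2 (r = 0.968). Chchd7 was closest to Bmi1 (r = 0.980), a Polycomb repressive complex 1 gene with means of 19.5 CPM for WT, 76.4 CPM for E2-KO, 17.0 CPM for G12D and 78.3 CPM for G12D/E2-KO, then to Ctnna1 (r = 0.974) and Gphn (r = 0.962). Within the 6 genes, Gkap1 and Chchd7 had r = 0.945, and Pttg1, Gdpd3, Lyrm7 and Lyplal1 had r between 0.720 and 0.976 with each other. Pairs of Gkap1 or Chchd7 with those genes had r between 0.329 and 0.655.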

How the data were processed

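Single c-Kit+ bone marrow cells were profiled with the 10x Genomics Chromium 3' kit in 12 libraries. Per the labels and the study's methods, the authors aligned reads to mm10 with Cell Ranger, removed cells rich in mitochondrial RNA and doublets called by Scrublet, and deposited raw UMI counts per gene and cell. No further cell filter was applied. The members and all gene lists were chosen with earlier results of these data known.

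Cells found in both T1 tables (cosine above 0.9 over 8000 genes, after the 300 most abundant were left out) were counted once. CPM were computed from summed counts. A cell was gated to a class when its mean marker score was at least 0.5 and led the next class by 0.25. Clusters were used only as an alternative. A G2/M score above 0.5 was called high and below 0 low. Sums were fitted with edgeR 4.0.16 (R 4.3.3, limma 3.58.1) using TMM factors, filterByExpr, glmQLFit and glmQLFTest. The fit of libraries had genotype and time point as factors (6 residual degrees of freedom), each class was fitted alone in the same way, and the G2/M fit had the library as a block. A planned test between classes is not reported, since class levels were among the values behind the choice of genes. Two-sided p-values over all genes were adjusted (Benjamini-Hochberg, threshold 0.05), and the fits were tested on simulated data. DESeq2 1.42.0 was an alternative. Clusters used scanpy 1.11.5 and leidenalg 0.10.2.

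Named genes were the 6 members, up to 3 genes with the smallest p of each list, the 3 genes most alike by r, and the nearest or called neighbours within 1 Mb, matched by symbol to GENCODE for 12421 of 12848 tested genes (96.7%). UMIs count molecules, and CPM of fewer than about 20 UMIs carry wide counting error. Depth was 12636998 to 23646292 UMIs per library.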

Additional observations from a re-analysis of the deposited data

Results flagged for a closer look

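The change of Pttg1 from WT differed between cells with high and low G2/M scores, with edgeR adjusted p = 7.76e-09 for E2-KO, 7.78e-10 for G12D and 1.60e-09 for G12D/E2-KO. Without the library block the differences were of the same size and the adjusted p was 0.171 for E2-KO and 0.0709 for G12D/E2-KO, so those 2 calls rested on the block. In all 9 mutant libraries Pttg1 was higher in the G2/M-high cells, and in WT the mean was 32.1 CPM in the high and 36.8 CPM in the low cells.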

How the results depend on the processing

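Of the 18 log2 changes of the 6 genes from WT, 16 kept their sign under all alternatives run. The others were small changes whose libraries overlapped WT, Gkap1 for G12D (0.38 with cells as deposited, 0.16 without T3, 0.09 without WT T3) and Chchd7 for G12D (0.15 with cells as deposited, 0.03 without WT T1). With cells as deposited, G12D T1 also held the cells it shared with G12D/E2-KO T1. Further, other size factors (RLE) moved no result past its threshold. Of the changes that moved by more than the spread between time points, Pttg1 for E2-KO was 2.40 with no filter on low counts, and Pttg1 for G12D/E2-KO was 1.98 without the 2 T1 libraries that share cells, an alternative chosen after seeing the data. With 1 library left out, the log2 change ran from 2.34 to 2.56 for Pttg1 for E2-KO, 2.01 to 2.30 for Pttg1 for G12D/E2-KO, 1.84 to 2.42 for Gdpd3 for E2-KO, 1.78 to 2.31 for Gkap1 for G12D/E2-KO, 1.59 to 2.06 for Lyplal1 for G12D/E2-KO and 1.89 to 2.36 for Lyrm7 for E2-KO.

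Time point is the replicate block of the library fit. Deviations of libraries with the same number correlated over 0.1 in 2 of 6 pairs at T1, 4 at T2 and 4 at T3, 10 of 18 in all with r up to 0.42, so not every pair passed. Without the replicate block 1 gene of the lists was called in E2-KO and 4 for G12D/E2-KO, and 1 neighbour in E2-KO. In the G2/M fit the block is the library. The G2/M test without it called 0, 1 and 0 genes, and the Pttg1 differences of 1.44 for E2-KO and 1.54 for G12D/E2-KO were not called.

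Within classes the log2 changes checked were those of Pttg1, Gdpd3 and Gkap1 in late granulocytes, Gkap1 in HSC/MPP, Lyplal1 in the megakaryocyte-erythroid class and Chchd7 in late erythroid cells. None changed sign under the alternatives run, stricter gate and classes from clusters included. Without the T1 libraries that share cells, Gdpd3 was 0.64 in late granulocytes and Gkap1 0.92 in HSC/MPP for G12D/E2-KO. With 1 library left out, Pttg1 in late granulocytes ran from 3.63 to 4.11 for G12D, Gdpd3 there from 0.74 (without E2-KO T3) to 1.42 for E2-KO, and Gkap1 in HSC/MPP from 0.33 (without G12D/E2-KO T2) to 0.80 for G12D/E2-KO and from 0.20 to 1.28 for E2-KO. The omission of the T3 libraries from the class and G2/M fits was also chosen after seeing the data.

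Counts of called genes moved more. With no filter on low counts the G2/M test called 77, 130 and 403 genes, and Gkap1 was then called in E2-KO (1.16, edgeR adjusted p = 0.00402) and G12D/E2-KO (1.04, edgeR adjusted p = 0.00600). The Gkap1 difference in G12D/E2-KO ran from 0.88 to 1.29 with 1 library left out, and was called without E2-KO T3 (edgeR adjusted p = 0.0422) or G12D/E2-KO T2 (0.0251). Without T3 it called 40 for G12D/E2-KO, and without the shared T1 libraries 2 for G12D and 129 for G12D/E2-KO. It called 1 gene in E2-KO and 45 for G12D/E2-KO with cells as deposited, and 1 and 27 with stricter limits. With 1 library left out it called 1 to 3, 2 to 82 and 7 to 145.

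In the lists, 1 gene was called in E2-KO and 4 for G12D/E2-KO with cells as deposited, 1 and 3 without T3, 5 for G12D/E2-KO without the shared T1 libraries, and 1 for G12D and 19 for G12D/E2-KO by DESeq2. Leaving out 1 library gave 0 to 3 for E2-KO and 0 to 11 for G12D/E2-KO. Of the neighbours 8, 2 and 13 were called by DESeq2, 1 for G12D with no filter, 0 for E2-KO with cells as deposited and 3 for G12D/E2-KO without the shared T1 libraries, and leaving out 1 library gave 0 to 9, 0 to 2 and 0 to 15. Of all genes DESeq2 called 430 for E2-KO, 140 for G12D and 1291 for G12D/E2-KO. Between times 1 gene was called at T2 with no filter, 3 at T2 without T3, 1 at T3 without the shared T1 libraries and 4 and 21 by DESeq2, with 0 to 7 at T3 when 1 library was left out. The cause of these shifts was not tested. Depth limited Lyplal1 most, with 72 UMIs in all WT cells and at most 17 in any WT class.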
